A study of Mus musculus with 40 samples.

Results

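ORR1 elements are a family of mouse MaLR retrotransposons, and 42225 annotated ORR1 copies were examined here out of 835636 repeat copies in the table. A copy was taken when its class and family read LTR/ERVL-MaLR and its repeat name began with ORR1. Of these copies 9122 were of the ORR1A type and 33103 of the older types ORR1B to ORR1G. Signal is the authors' normalised read count, whole reads of a copy divided by 1 factor per library. A mean signal of at least 5 over the 40 libraries was asked of a copy before it was tested. This held for 1455 ORR1 copies (386 ORR1A and 1069 older), or 3.45% of them, beside 3.97% of all repeat copies. A further 244 ORR1 copies (53 ORR1A and 191 older) had no read in any library.

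MaLR elements are mammalian LTR retrotransposons related to the ERVL retroviruses, and most of their copies are solitary long terminal repeats (LTRs) left after the internal part was lost. An LTR carries the promoter and the polyadenylation signal of its element, so a copy near or within a gene can start or end a transcript. ORR1A is the youngest of the ORR1 types, and ORR1B to ORR1G are older. In rodents an ORR1E LTR is known as a promoter of Naip genes, which encode sensors of the inflammasome.

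The cells were YUMM1.7, a mouse melanoma line, before and after serial passage as tumours in mice. Dissociated tumours were grown in culture for 1 to 3 passages before poly(A) RNA was taken, and the host strain of the F and N2 passages is not given in the labels. The groups were YUMM1.7 cells with 3 libraries, the tumour passages F0 and F1 with 4 each, F2 and N2.1 with 5 each, N2.2 and N2.3 with 3 each, then Balb/c-1 with 4 libraries, Balb/c-2 with 3, a second set of 3 libraries from those tumours (Balb/c-2 rep2, called rep2 where it is short), and CBA with 3. All derive from the same line and the labels name no drug. Balb/c and CBA name inbred mouse strains, and the labels do not say what N2 means. YUMM1.7 cells were sampled as cultures of 1 line, and each passage was made once, so p-values cover the spread between cultures or tumours of a passage and not a repeat of the passage.

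Libraries held between 1280522 and 2976730 reads in repeat copies. Over tested ORR1 copies, libraries of the same group correlated at 0.749 to 0.901 (median 0.840) and libraries of different groups at 0.606 to 0.880 (median 0.754). The label melanoma could be checked only through repeat copies in exons of marker genes. Of 12 melanocyte genes 3 hold such copies (Tyr, Mlana and Oca2), and their summed group means lay between 0 and 0.382. Copies in Zeb1 and Fn1, genes of a mesenchymal state, summed to 360 to 622, copies in fibroblast genes to 1143 to 2040, nearly all of it in Pdgfra and Pdgfrb, while Dcn was at 0 in 36 libraries, Col1a1 at 0 in 26 and Lum holds no exon copy. Copies in immune genes summed to 0.217 to 7.37. The part that other cell types might have in the ORR1 values was not tested.

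The sequences below show how ORR1 types differ at gene starts. They are upstream windows of RefSeq genes (GRCm38.p6) whose start site lies in an ORR1 copy, given 5′ to 3′ on the strand of the gene and ending at the base before the start site, with the bases inside the ORR1 copy in capitals. The Aim2 window stops earlier, where GENCODE places an exon of another transcript. The windows are chr13:100202123-100202372 for Naip2, chr13:100247337-100247586 for Naip5, chr1:173420354-173420570 for Aim2, chr1:132278379-132278628 for Gm29630 and chr12:82446447-82446696 for Gm51987, all on the minus strand except Aim2. The last line is an ORR1B1 LTR that a Vamp1 noncoding exon contains (chr6:125239096-125239395, plus strand, the first 300 bases of the copy, with no capitals). These genes were chosen after their values were seen.
Naip2, ORR1E: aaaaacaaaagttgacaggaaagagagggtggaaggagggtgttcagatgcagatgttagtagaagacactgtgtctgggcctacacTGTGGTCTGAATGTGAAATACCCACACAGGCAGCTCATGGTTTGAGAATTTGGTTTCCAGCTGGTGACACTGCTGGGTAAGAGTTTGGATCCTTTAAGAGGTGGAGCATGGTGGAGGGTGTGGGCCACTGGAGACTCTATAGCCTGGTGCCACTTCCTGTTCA
Naip5, ORR1E: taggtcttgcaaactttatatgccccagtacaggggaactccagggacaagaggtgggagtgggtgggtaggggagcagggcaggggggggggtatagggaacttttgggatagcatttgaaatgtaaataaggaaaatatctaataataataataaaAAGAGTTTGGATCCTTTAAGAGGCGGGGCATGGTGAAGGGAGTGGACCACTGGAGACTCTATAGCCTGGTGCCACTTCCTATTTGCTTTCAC
Aim2, ORR1E: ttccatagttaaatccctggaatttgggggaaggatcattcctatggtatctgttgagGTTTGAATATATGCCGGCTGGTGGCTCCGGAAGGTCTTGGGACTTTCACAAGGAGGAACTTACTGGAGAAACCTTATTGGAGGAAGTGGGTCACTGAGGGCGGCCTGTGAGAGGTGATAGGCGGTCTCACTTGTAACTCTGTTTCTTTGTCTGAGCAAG
Gm29630, ORR1A2: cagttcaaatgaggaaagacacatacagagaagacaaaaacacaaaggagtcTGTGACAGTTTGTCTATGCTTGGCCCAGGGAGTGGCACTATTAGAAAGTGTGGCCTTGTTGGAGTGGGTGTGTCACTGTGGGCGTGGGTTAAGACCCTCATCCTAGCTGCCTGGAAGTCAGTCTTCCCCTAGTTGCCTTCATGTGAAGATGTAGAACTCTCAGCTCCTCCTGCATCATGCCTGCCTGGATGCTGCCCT
Gm51987, ORR1A4: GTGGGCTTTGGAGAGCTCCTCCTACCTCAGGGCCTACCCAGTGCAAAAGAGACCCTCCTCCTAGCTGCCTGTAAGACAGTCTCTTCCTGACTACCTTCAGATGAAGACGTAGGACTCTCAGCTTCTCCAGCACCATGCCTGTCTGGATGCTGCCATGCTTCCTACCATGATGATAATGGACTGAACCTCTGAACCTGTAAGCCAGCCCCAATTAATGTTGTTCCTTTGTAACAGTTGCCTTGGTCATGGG
Vamp1, ORR1B1: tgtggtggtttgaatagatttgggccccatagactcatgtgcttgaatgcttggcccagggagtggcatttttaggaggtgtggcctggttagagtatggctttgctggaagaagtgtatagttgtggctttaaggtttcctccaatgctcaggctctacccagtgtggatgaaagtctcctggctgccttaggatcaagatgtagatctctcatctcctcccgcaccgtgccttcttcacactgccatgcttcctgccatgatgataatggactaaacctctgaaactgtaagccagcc

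The ORR1E pieces upstream of Naip2 and Naip5, which encode related inflammasome sensors, were alike, with 77 of 83 aligned columns identical (92.8%). Between the Naip2 and Aim2 windows, whose ORR1E copies lie on different chromosomes, the best local alignment covered 19 columns, 16 of them identical. The ORR1A2 window of Gm29630 and the ORR1A4 window of Gm51987 aligned over 105 columns with 82.9% identity. The ORR1A4 window also aligned with the ORR1B1 LTR in Vamp1, over 123 columns with 83.7% identity. Among LTR copies of at least 200 bases within an exon, the best other copy more than 10000 bases away (at least 150 aligned bases) was a median of 85.4% identical for ORR1A (found for 160 of 160), 78.5% for ORR1B (119 of 121), 76.9% for ORR1C (80 of 111) and 75.3% for ORR1D (72 of 161). No such match was found for the 120 ORR1E, 150 ORR1F and 15 ORR1G copies. The best match could be of any ORR1 type. It was of the same type for 90.6% of matched ORR1A, 92.4% of ORR1B, 63.7% of ORR1C and 87.5% of ORR1D copies. The medians cover only copies with a match. By this measure copies of younger types had the closer matches. The sources used here do not say how reads that match several copies were assigned.

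Of 32851 RefSeq promoter windows (250 bases before a start site), 220 overlapped an ORR1 copy, belonging to 206 genes, and in 148 the start site itself lay in the copy. The copies involved numbered 207, 69 of them ORR1A. The letters TATAAA on either strand were in 27 of the 148 windows (18.2%) and in 12.4% of all windows. CCAAT on either strand was in 55 of them (37.2%, all windows 33.8%) and AATAAA in 29 (19.6%, all windows 18.1%). TATAAA and AATAAA differ in their first letter and neither contains the other. These counts cover whole windows, with the bases outside the ORR1 copy. Of the windows printed, that of Aim2 and that of Gm51987 hold CCAAT, and those of Naip2 and Gm29630 hold none of the motifs. The Naip5 window holds TATAAA (on the other strand) and AATAAA, both outside the ORR1 copy.

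The level of ORR1 was set mainly by copies that overlap exons of ordinary genes. A copy counted as in an exon when any part of it overlapped one, and coding exons were taken before UTRs and noncoding exons. Copies in exons made up 6.24% of ORR1A copies and 7.24% of older ones, yet gave 56.9% of ORR1A signal and 73.2% of older ORR1 signal (all repeat copies: 7.30% and 70.5%). In coding exons alone lay 27.9% of ORR1A and 29.3% of older ORR1 signal, beside 12.2% for all repeat copies. In 3′ UTRs lay 16.1% of ORR1A, 35.1% of older ORR1 and 46.2% of all repeat signal. Introns held 29.3% of ORR1A and 19.6% of older signal, and sequence outside genes 13.8% and 7.13%.

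Per kb of annotated copy, older ORR1 gave a mean signal of 6.23, ORR1A of 4.07 and all repeats of 5.28. Outside exons the order turned, with 1.87 per kb for ORR1A, 1.79 for older ORR1 and 1.65 for all repeats. The subfamilies with the highest level per kb were internal parts: ORR1B1-int at 24.7 (5442 copies with a median length of 125 bases), ORR1A3-int at 13.9 and ORR1D1-int at 8.20. Of their signal 63.3%, 75.9% and 65.2% came from copies that overlap coding exons. Among LTR subfamilies, ORR1C2 (6.03 per kb), ORR1E (5.49), ORR1A3 (5.46), ORR1A2 (4.4), ORR1G (4.35) and ORR1F (4.31) lay above ORR1D1 (3.75), ORR1B1 (3.56), ORR1D2 (3.51), ORR1B2 (3.48), ORR1A4 (3.31), ORR1C1 (3.22), ORR1A1 (2.46) and ORR1A0 (2.28). The levels of the LTRs did not follow the order of their age. The other internal parts ran from 7.59 (ORR1D2-int) and 4.14 (ORR1A4-int) down to 0.932 per kb (ORR1C1-int), with ORR1A0-int, ORR1E-int, ORR1D-int, ORR1A1-int, ORR1F-int, ORR1B2-int, ORR1C2-int and ORR1A2-int between. A single copy held 64.8% of the signal of ORR1D1-int, 46.3% of ORR1G, 33.6% of ORR1A3 and 32.5% of ORR1E. ORR1G-int, with 14 copies and a mean summed signal of 2.87, was not tested.

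**Figure D1:**
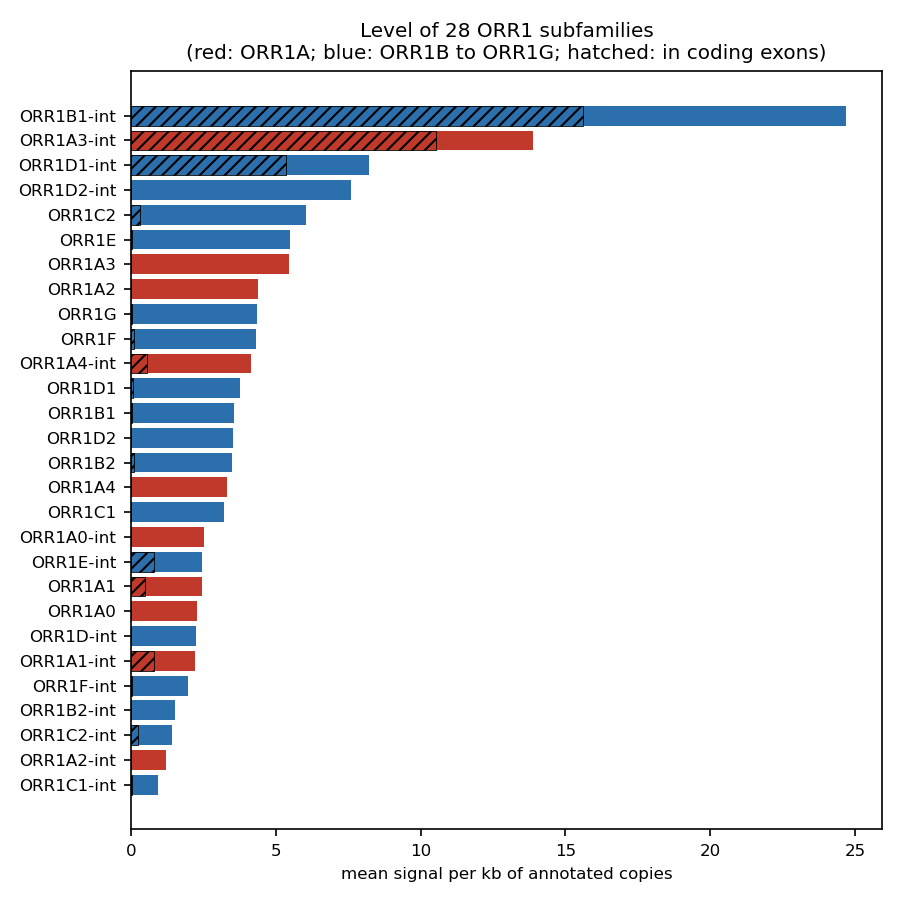
Mean signal per kb of annotated copy over the 40 libraries (horizontal axis) for the 28 tested ORR1 subfamilies, ORR1A in red and older types in blue. The part from copies that overlap coding exons is hatched. ORR1B1-int (24.7) and ORR1A3-int (13.9) stand above the rest, and most of their bars are hatched.

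The copies with the highest mean signal are given here as annotated. Whether pieces annotated as ORR1 in coding exons derive from ORR1 insertions was not tested. Named pieces in exons were as short as 11 bases (Fbn2), 15 (Rrn3) and 19 (Uhrf1). Gpx4, the enzyme that reduces lipid peroxides, holds a coding ORR1B1-int piece (chr10:80055762-80055951) with a mean signal of 5765, between 2794 and 7717 over all libraries. An ORR1E LTR in the 3′ UTR of Parva, a focal adhesion protein, followed (chr7:112590151-112590488, mean 2189). Next came ORR1B1-int in the 3′ UTR of Cavin1, a coat protein of caveolae (chr11:100958120-100958160, mean 1897), and coding ORR1D1-int in Nedd8, a ubiquitin-like modifier (chr14:55663493-55663644, mean 1852). ORR1B1-int pieces in Cct6a, a chaperonin subunit (chr5:129794226-129794433, mean 1579), and Actr2, an actin-branching protein (chr11:20100931-20101001, mean 1140), completed the 6 highest older copies.

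Among ORR1A copies the 6 highest were lower. Of these, 2 were coding ORR1A3-int pieces of Hif1a, the hypoxia-inducible transcription factor (chr12:73941498-73941747, mean 668, and chr12:73945033-73945268, mean 607). Coding ORR1A3-int pieces in Mgea5 (chr19:45757866-45758082, mean 623), the enzyme that removes O-GlcNAc from proteins, and in the phosphoglucomutase gene Pgm2 (chr5:64100980-64101190, mean 486) had similar levels. So did an ORR1A3 LTR in the 3′ UTR of Cast, the calpain inhibitor (chr13:74692929-74693247, mean 535), which also overlaps an exon of Erap1. The sixth was an ORR1A2 LTR in an intron of Inf2, an actin-assembly factor (chr12:112613254-112613567, mean 481). The first Hif1a piece had means of 529 ± 69.0 in N2.1 (SD, n = 5) and 1057 ± 123 in Balb/c-2 rep2 (SD, n = 3), the highest group, but it was called in none of the 8 comparisons run.

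Outside exons the highest ORR1A copies, after that in Inf2, were annotated as LTR joined to internal part. They were ORR1A0 with internal part at chr2:178036362-178038828 (mean 340) and at chr6:112615587-112617889 (mean 286), and ORR1A4 with internal part at chr13:74551802-74553323 (mean 161). The highest older copies outside exons were an ORR1F in an intron of Luc7l2, a splicing factor (chr6:38606597-38606879, mean 291), an ORR1B1-int outside genes (chr9:43215534-43217080, mean 238), an ORR1E in an intron of the noncoding gene Junos (chr4:95166283-95166606, mean 205) and an ORR1B1 in an intron of Glod4 (chr11:76220847-76221165, mean 133). The chr9 copy belongs to a run of 5 ORR1 copies that reaches to position 43219451. Of the tested ORR1 copies 377 lay within 10000 bases of another, in 168 runs of up to 5 copies. The sources used here do not say whether reads were counted by strand, so reads of genes that overlap on opposite strands cannot be told apart.

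The balance between ORR1A and older ORR1 stayed within a narrow range. ORR1A took 0.871% to 0.996% of a library's repeat signal and older ORR1 3.02% to 3.67%. The log2 ratio of their summed signals lay between -2.02 and -1.67. Its group means ± SD were -1.93 ± 0.024 in YUMM1.7 cells, -1.86 ± 0.054 in F0, -1.91 ± 0.060 in F2, -1.89 ± 0.062 in N2.1, -1.79 ± 0.10 in N2.3, -1.93 ± 0.043 in Balb/c-1 and -1.78 ± 0.033 in CBA. The Balb/c-2 libraries had -1.89 ± 0.028 and their repeats -1.88 ± 0.034. In bulk libraries fewer cells of a kind and less RNA per cell cannot be told apart. No ratio differed at an adjusted p under 0.05 over the 8 comparisons (exact two-sided permutation tests). The 3 largest differences were a fall of the log2 ratio by 0.147 from N2.3 to Balb/c-1 (exact p = 0.057, adjusted p = 0.286), a rise by 0.105 from N2.1 to N2.3 (exact p = 0.143, adjusted p = 0.286) and a rise by 0.101 from Balb/c-2 rep2 to CBA (exact p = 0.1, the smallest that 3 against 3 libraries can give, adjusted p = 0.286).

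In the first and last of these the groups did not overlap. N2.3 libraries lay between -1.85 and -1.67 and Balb/c-1 between -1.99 and -1.90, and without N2.3 C the difference was -0.089. CBA lay between -1.81 and -1.74 and Balb/c-2 rep2 between -1.90 and -1.84. The older share averaged 3.16% in N2.3, 3.39% in N2.1 and 3.47% in Balb/c-1, and N2.3 overlapped neither. Permutation gave exact p = 0.0357 against N2.1 and 0.0571 against Balb/c-1 (adjusted p = 0.222 for both). In CBA it averaged 3.25% and in rep2 3.43%, without overlap (exact p = 0.1, adjusted p = 0.222). The ORR1A share averaged 0.917% in N2.3, 0.914% in N2.1 and 0.909% in Balb/c-1. Among copies outside exons alone, the log2 ratio was -1.28 in N2.1 and -1.15 in F2, a difference of -0.129 with no overlap (exact p = 0.00794, the smallest possible, adjusted p = 0.0635), and it rose by 0.095 from N2.1 to N2.3 (exact p = 0.0357, adjusted p = 0.143). Over all copies these differences were 0.016 and 0.105, so the direction in N2.1 depended on whether exons were counted. Outside exons CBA was lower than Balb/c-2 rep2 by 0.068, the reverse of the value over all copies.

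**Figure D2:**
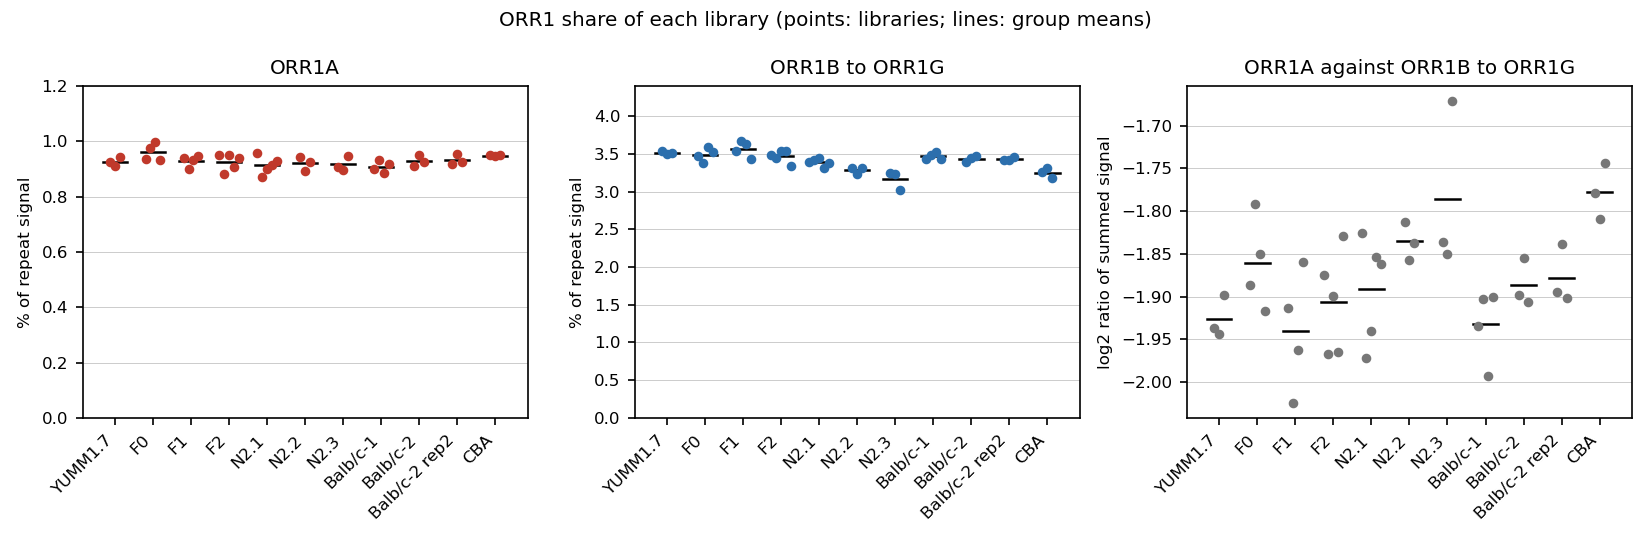
Share of repeat signal in ORR1A and in ORR1B to ORR1G (percent) and the log2 ratio of the 2 sums, by group, with 1 point per library and lines at group means. The ratio is highest in 1 N2.3 library (-1.67), and the group means of CBA and N2.3 are the highest. The older share has its lowest group means in N2.3 (3.16%) and CBA (3.25%), and the ORR1A share lies between 0.871% and 0.996%.

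Calls on single copies (limma, adjusted p under 0.05) came at the rate of all repeat copies. From F2 to N2.1, 139 of 1455 ORR1 copies were called (9.55%, background 9.7%). Of these 102 were higher and 37 lower in N2.1 (background 7.34% and 2.36%). From N2.1 to N2.3 there were 24 (1.65%, background 1.4%), 7 higher and 17 lower (background 0.726% and 0.677%). From N2.3 to Balb/c-1 there were 32 (2.2%, background 2.2%), 14 higher and 18 lower (0.912% and 1.29%). From Balb/c-2 rep2 to CBA there were 80 (5.5%, background 5.93%), 46 higher and 34 lower (3.39% and 2.54%). These total shares are near the background and are no result about ORR1 as a family. By direction the step from N2.1 to N2.3 differed, with 7 higher and 17 lower beside 241 and 225 of all copies. This difference in direction was not tested. Single libraries carried many calls: without F2 B there were 79 from F2 to N2.1 and without F2 C 92. Without N2.1 C, N2.1 E, N2.3 A or N2.3 B, 8 to 11 were left from N2.1 to N2.3. Without N2.3 A, N2.3 B, N2.3 C, Balb/c-1 A or Balb/c-1 C, 9 to 21 were left from N2.3 to Balb/c-1. Without rep2 A, rep2 C, CBA A or CBA C, 23 to 46 were left for CBA. The counts over all copies without single libraries are not given here. In all, 251 ORR1 copies (58 ORR1A and 193 older) were called in at least 1 of the 8 comparisons, 25 of them in 2 and 2 in 3. That is 17.3% of tested ORR1 copies, beside 17.7% of all tested repeat copies (5868 of 33215).

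The split by direction moved with the scaling. Under TMM factors the calls from F2 to N2.1 were 63 higher and 59 lower, with edgeR 55 and 63, and with DESeq2 67 and 68. All repeat copies split likewise, into 1392 higher and 1325 lower under TMM, and into 1271 higher of 2678 called with edgeR and 1645 higher of 3186 with DESeq2. For CBA the TMM split was 36 and 37, with edgeR 20 and 29 and with DESeq2 23 and 36. All copies split into 888 and 1042 under TMM, 388 and 743 with edgeR and 531 and 1034 with DESeq2. From N2.3 to Balb/c-1 the ORR1 split was 20 and 11 under TMM, 14 and 14 with edgeR and 28 and 25 with DESeq2. In the same order all copies had 439 and 291, 386 and 339, and 606 and 518. From N2.1 to N2.3 the ORR1 split was 6 and 11 under TMM, 7 and 11 with edgeR and 8 and 19 with DESeq2. All copies had 203 and 152, 303 and 139, and 358 and 320. The authors' factors put the median log2 fold change of all tested copies at 0.258 from F2 to N2.1 (0.065 under TMM), at 0.203 for CBA against Balb/c-2 rep2 (0.094) and at -0.167 for Balb/c-1 against N2.3 (-0.030). The ORR1 medians moved with it: 0.219 for ORR1A and 0.239 for older ORR1 from F2 to N2.1, 0.236 and 0.205 for CBA, and -0.161 and -0.148 for Balb/c-1.

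From F2 to N2.1, 23 ORR1A copies of 386 were higher and 7 lower, and of 1069 older copies 79 were higher and 30 lower. By type the calls were 32 higher and 14 lower of 368 ORR1B, 10 and 4 of 136 ORR1C, 18 and 4 of 266 ORR1D, 6 and 1 of 131 ORR1E, 11 and 6 of 153 ORR1F, and 2 and 1 of 15 ORR1G. For CBA they were 11 and 10 for ORR1A, 35 and 24 for older types. From N2.1 to N2.3, 6 ORR1A copies were higher and 3 lower, against 1 and 14 older copies, and from N2.3 to Balb/c-1, 1 ORR1A copy was higher and 8 lower, against 13 and 10. Whether these splits differ between ORR1A and older types was not tested.

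The fold changes differed by the place of the copies. Copies in introns had a median log2 fold change of 0.44 from F2 to N2.1, with 43 higher and 4 lower of 622. Copies in exons had a median of 0.10 (41 and 26 of 629) and copies outside genes 0.11 (18 and 7 of 204). The medians of CBA against Balb/c-2 rep2 were 0.53 in introns (24 higher and 3 lower), -0.02 in exons (19 and 24) and -0.12 outside genes (3 and 7). All repeat copies in introns had nearly the same medians, 0.43 and 0.53. From F2 to N2.1, 7.52% of all intron copies were called higher and 0.592% lower, 6.91% and 3.84% of all exon copies, and 8.56% and 2.78% of all copies outside genes. For CBA these shares were 4.48% and 0.848%, 2.86% and 3.86%, and 1.40% and 3.41%. The ORR1 counts lie near these shares. The intron share of a library's repeat signal moved with these values: it was 14.3% to 24.4% in F2 and 21.7% to 26.7% in N2.1, and 24.6% to 27.3% in CBA beside 17.8% to 19.5% in Balb/c-2 rep2. With this share as a covariate, 48 ORR1 copies (40 higher and 8 lower) were called from F2 to N2.1 and 7 for CBA, in place of 139 and 80. Over all repeat copies the calls dropped as well, to 1147 (3.45%) and 252 (0.759%) from 3222 and 1970.

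**Figure D3:**
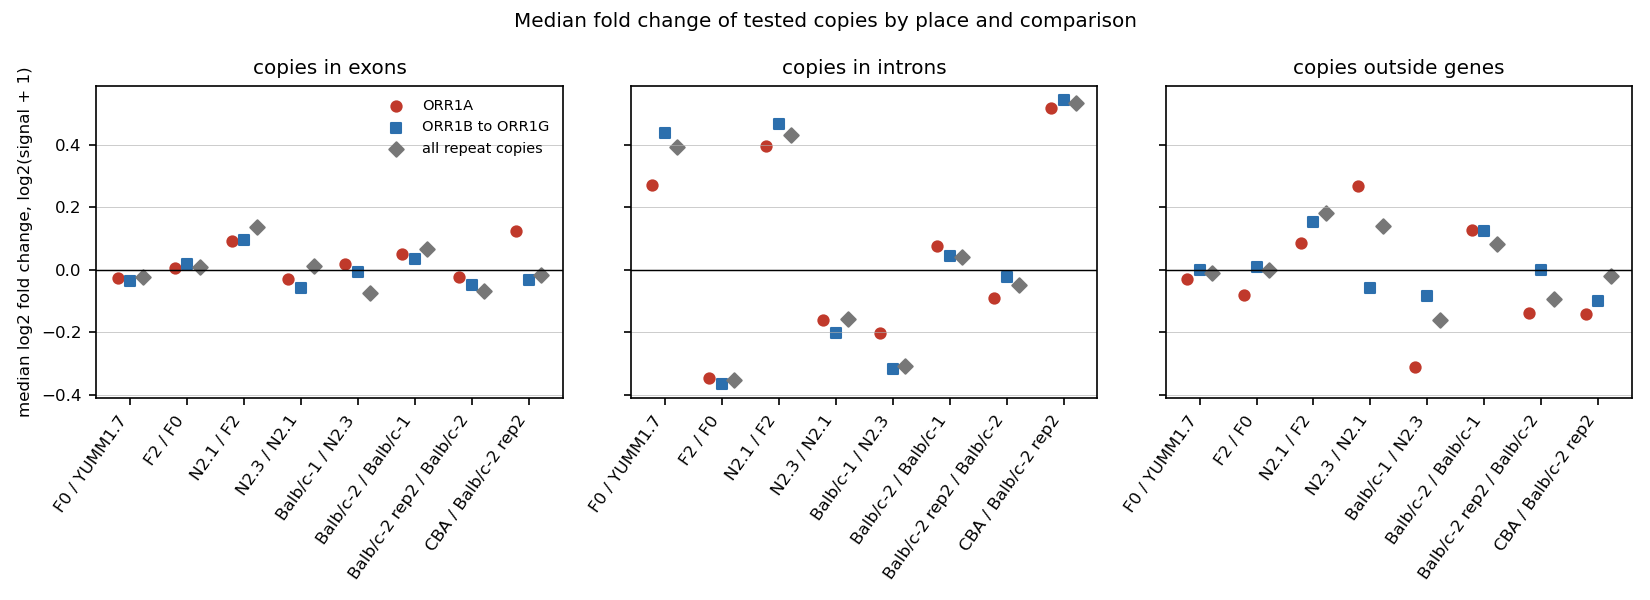
Median log2 fold change of tested copies on the log2(signal + 1) scale (vertical axis) in each of the 8 comparisons, for copies in exons, in introns and outside genes, with ORR1A in red, older ORR1 in blue and all repeat copies in grey. In introns both ORR1 classes follow all repeats, up in N2.1 and CBA, while in exons they stay near 0.

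From F2 to N2.1 the ORR1 copy at the start of Naip2 rose strongly. Naip2 encodes an inflammasome sensor, and its RefSeq start site (chr13:100202122) lies inside the ORR1E copy chr13:100201950-100202285, annotated as 5′ UTR and printed in part above. Signal was 3.87, 10.1 and 7.72 in YUMM1.7 cells. F0 libraries read 0 to 5.48, F1 libraries 1.76 to 16.9, and F2 libraries 2.73, 4.37, 4.21, 6.69 and 2.73. It was 41.1, 46.0, 36.4, 43.3 and 76.0 in N2.1. Every N2.1 library was thus above every library of the earlier groups. Later values were 23.4 to 47.0 in N2.2, 49.99, 63.1 and 6.06 in N2.3, and 49.9 to 85.7 in Balb/c-1. The Balb/c-2 tumours read 40.1 to 47.1 (36.5 to 62.5 in their repeat libraries) and CBA 21.97 to 30.5. All later libraries except N2.3 C remained above the YUMM1.7 to F2 range. The log2 fold change from F2 to N2.1 was 3.27 (SE 0.46, limma adjusted p = 3.53e-06), and the call was kept under each of 17 alternatives. The other tested copy in a Naip2 exon, a B1-related repeat, was also higher, by 1.58.

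The sister genes of Naip2 gave little signal at their ORR1E copies. The copy at the Naip5 start (chr13:100247171-100247428) had a mean signal of 0.455, and the one in the first exon of Naip6 (chr13:100317535-100317790) had 1.22, so neither was tested. Aim2, a sensor of cytosolic DNA, has its RefSeq start site (chr1:173420604) in another ORR1E copy (chr1:173420412-173420765). Its signal was 0, 0, 0, 0 and 7.52 in N2.1, 1.84, 2.65, 2.88 and 26.0 in Balb/c-1, and 36.6, 32.6 and 1.17 in CBA. Balb/c-2 tumours read 36.2, 1.12 and 32.1, and their repeat libraries 17.3, 4.42 and 19.7. In each of these last 3 groups 1 library lay far below the others, tumour B in both Balb/c-2 and its repeat, and the copy was called in no comparison.

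In total 9 tested ORR1 copies overlapped a promoter window: those of Naip2, E230032D23Rik (ORR1B1), Mtf2 (ORR1B1 with internal part), Purb (ORR1F), Gm29630 (ORR1A2), Aim2, Gm40468 (ORR1A2), Gm51987 (ORR1A4) and Gm36899 (ORR1D2). The copy at Naip2 was the only one of the 9 called in any comparison. The ORR1A2 at Gm29630 (chr1:132278291-132278576) had group means of 0 in YUMM1.7 cells, 5.06 in F2, 10.95 in N2.1 and 2.42 in N2.3. Balb/c-1 had a mean of 4.80. The mean was 21.9 for the Balb/c-2 tumours, 26.0 for their repeat libraries and 26.3 for CBA.

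**Figure D4:**
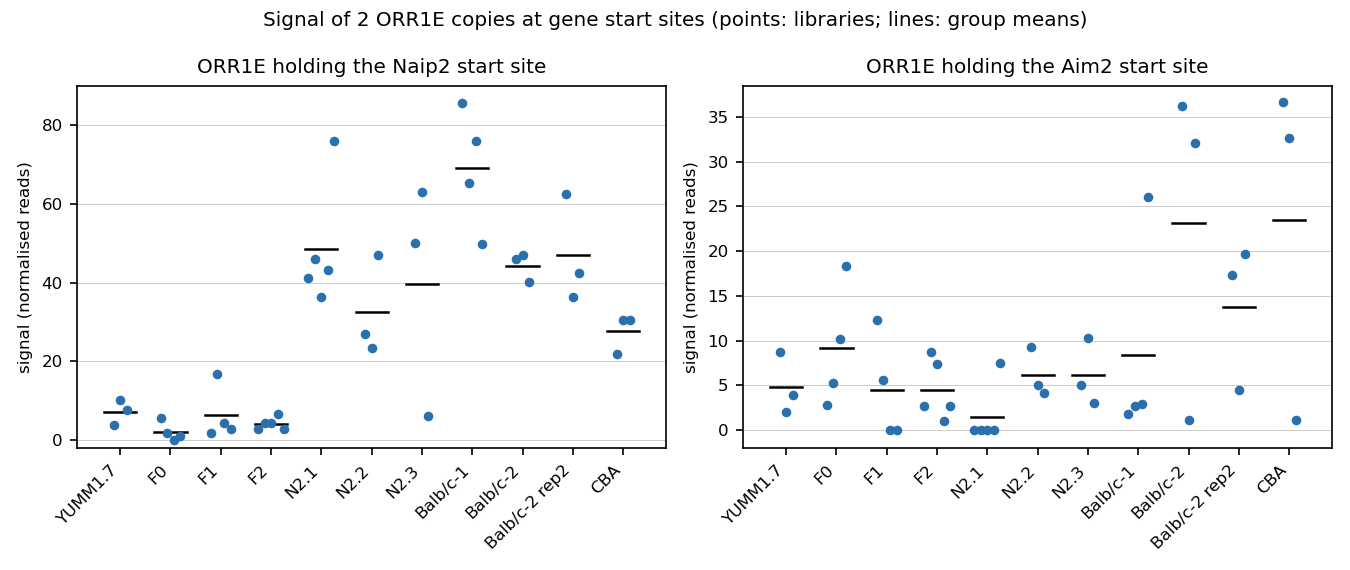
Signal (normalised reads, vertical axis) of the ORR1E copies that hold the RefSeq start sites of Naip2 and Aim2, by group, with 1 point per library and lines at group means. The 5 N2.1 libraries lie between 36.4 and 76.0 at Naip2, above every earlier library, while the Aim2 values spread widely within the Balb/c and CBA groups.

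An ORR1A2 LTR in an intron of the noncoding gene Gm11884 (chr4:23316214-23316523) also rose in N2.1. It had no read in YUMM1.7 cells or F2, reached 7.73 in F0 and 3.21 in F1, and stood at 23.5, 10.2, 4.16, 17.7 and 4.51 in N2.1. No N2.1 library overlapped F2, which made the signal at least 4.07-fold higher against a floor of 3 reads per library (log2 fold change 3.43, SE 0.60, adjusted p = 1.25e-04). Later libraries lay between 25.1 and 91.8 except N2.3 C at 0.757. Of the 11 other tested copies in Gm11884 introns 10 were higher as well, and no level of the gene itself was measured here. The call was kept under every alternative run, as were those of 2 ORR1B2 copies outside genes on chromosome 18 (at 18810367 and 18798308). The first of these had no read in any library up to F2 and 4.09 to 29.1 in N2.1, at least 4.4-fold higher (adjusted p = 1.15e-06).

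The largest falls from F2 to N2.1 included 2 ORR1C2 pieces in the 3′ UTR of Gxylt2, a xylosyltransferase that modifies Notch. The piece chr6:100808321-100808549 had 249.7, 166, 209, 229 and 91.8 in F2 and 55.4, 73.6, 8.31, 15.0 and 5.27 in N2.1 (189 ± 62.5 and 31.5 ± 31.0, SD, n = 5 each). The groups did not overlap, and the log2 fold change was -3.11 (SE 0.81, adjusted p = 0.0101, and 0.0673 with the intron share as a covariate). Its neighbour chr6:100808160-100808189 fell by 3.87 on the log2 scale (adjusted p = 9.35e-05). All 11 other tested copies in Gxylt2 exons (each of the pair counts the other) were lower too, with a median of -3.01. The other named falls were an ORR1F outside genes at chr3:104752133-104752381 (12.5 ± 3.98 to 1.60 ± 1.17, log2 fold change -2.46, adjusted p = 0.00396, and 0.123 with the intron share as a covariate) and an ORR1B1-int piece of 11 bases in Fbn2, which encodes a fibrillin (9.06 to 0.205, adjusted p = 0.0495, lost in 13 of 16 alternatives, among them those without any 1 of the 10 libraries, with adjusted p of 0.0529 to 0.1).

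Summed over copies, 14 of 28 ORR1 subfamilies were called from F2 to N2.1, 13 higher and 1 lower, beside 39.2% of all subfamilies (35.9% higher and 3.39% lower). But under TMM factors 3 were called and with edgeR or DESeq2 5, all of them lower. Of all 1004 subfamilies TMM factors called 124 higher and 88 lower, and the counts for edgeR and DESeq2 are not given here. ORR1B2 summed to 1467 ± 73.8 in F2 and to 1842 ± 112 in N2.1 (log2 fold change 0.33, SE 0.06, adjusted p = 1.8e-04). ORR1D2 went from 2461 ± 227 to 3129 ± 106 (0.35, adjusted p = 2.7e-04) and ORR1D1 from 3779 ± 318 to 4747 ± 143 (0.33, adjusted p = 9.2e-04). These shifts are close to the median of all subfamilies, 0.294. Of ORR1A, 3 of 10 subfamilies were called: ORR1A2-int (0.44, adjusted p = 0.0072), ORR1A0 (0.35, adjusted p = 0.0243) and ORR1A4 (0.25, adjusted p = 0.0192). ORR1C1, ORR1C1-int, ORR1C2, ORR1C2-int, ORR1D-int, ORR1D2-int and ORR1F were the other higher ones. ORR1D1-int fell by 0.22 (adjusted p = 0.0238), and so did the Nedd8 piece that holds most of its signal, from 2097 ± 283 to 1488 ± 89.7 (log2 fold change -0.49, adjusted p = 0.0124). Outside exons ORR1D1-int was higher by 0.43. Without F2 B 7 subfamilies were called, without F2 C 8, and without N2.1 A or N2.1 E 9.

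Passage from N2.1 to N2.3 changed few ORR1 copies, and the 2 highest rises were ORR1A2 LTRs in 3′ UTRs. The copy in Lgr6, a receptor for R-spondins (chr1:134984682-134985006), had 0 in all 5 N2.1 libraries and 24.6, 16.6 and 262 in N2.3. In Balb/c-1 it was back at 0, 0, 0.961 and 0. N2.3 stood above both neighbours without overlap. The rise was at least 37.1-fold (log2 fold change 5.62, SE 0.87, adjusted p = 1.62e-04) and the signal then fell by 5.37 on the log2 scale (SE 0.90, adjusted p = 8.91e-04), both kept under every alternative run. The bound rests on N2.3 C, and without that library it is 7.55-fold. F0 had been high as well in 3 of 4 libraries, at 0, 8.67, 44.9 and 49.3. The other tested copy in a Lgr6 exon moved the same way in both steps.

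The copy in Cd38, an enzyme that consumes NAD (chr5:43911718-43912039), had 0, 0, 2.08, 0 and 0.752 in N2.1 and 27.1, 37.9 and 2.27 in N2.3. The log2 fold change was 3.45 (SE 0.73, adjusted p = 0.0082), and the call was lost without N2.3 A (adjusted p = 0.0707) or without N2.3 B (adjusted p = 0.11). Later libraries held 12.9 to 112, above all libraries of YUMM1.7 cells, F0 and F1. They did not clear F2, which read 1.82, 12.0, 6.32, 16.3 and 0.909, with F2 D above CBA C at 12.9. An ORR1A3 LTR outside genes at chr8:93496840-93497182 had no read up to N2.1 and 3.39, 25.2 and 1.51 in N2.3, at least 3.69-fold higher (adjusted p = 0.0336). Without N2.3 B the mean of 2.45 is under the floor of 2.72 and no bound remains. It was lower again in CBA, at 2.09, 1.09 and 0 against 13.3, 7.74 and 19.7 in Balb/c-2 rep2 (log2 fold change -2.88, adjusted p = 0.0208). The printed ORR1B1 LTR in Vamp1, a vesicle fusion protein, went from 2.89 ± 1.46 to 15.5 ± 5.44 (2.11, adjusted p = 0.0387), a call lost without each of 6 of the 8 libraries (adjusted p 0.0513 to 0.146) and with no filter. The ORR1A3 call was likewise lost without 6 libraries, most clearly N2.3 B (adjusted p = 0.356).

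Of the 17 falls from N2.1 to N2.3, 14 were at older copies, which make up 73.5% of tested ORR1 copies. The ORR1E in the Junos intron had 158 to 333 in N2.1 and 89.8, 51.3 and 30.3 in N2.3, with no overlap (log2 fold change -1.99, SE 0.33, adjusted p = 3.82e-04). The ORR1E in the Parva 3′ UTR went from 2392 ± 184 to 1499 ± 430 (-0.72, adjusted p = 0.0328) and back to 2396 ± 127 in Balb/c-1 (0.72, adjusted p = 0.0341), with the lowest value, 1003, in N2.3 C. ORR1F copies were 3 of the 4 largest falls: an intronic copy at position 39681197 of chromosome 18 (19.8 ± 14.0 to 0.526 ± 0.911, -3.68, adjusted p = 0.00582), a copy in an intron of Aspa, which cleaves N-acetylaspartate (30.2 ± 5.20 to 6.85 ± 6.14, -2.62, adjusted p = 0.0223), and a copy in the 3′ UTR of Prex2, a Rac exchange factor. The Prex2 copy (chr1:11302479-11302841) had read 39.7 to 144 in YUMM1.7 cells, 1.505 to 20.2 in N2.1 and 0 in N2.3, at least 3.32-fold lower (adjusted p = 0.0287), and in the groups after N2.3 it was at 0 in all libraries but CBA A (3.14). An ORR1C2 outside genes (chr10:59139019-59139420) also ended at 0, at least 3.96-fold lower (adjusted p = 0.0267). Without N2.1 A the Prex2 bound is 2.04-fold, and without N2.1 B the ORR1C2 bound is 2.07-fold. Without single libraries the Prex2 call was lost for N2.1 A, N2.1 B and each N2.3 library (adjusted p up to 0.0933), the ORR1C2 call for N2.1 B, N2.1 D and each N2.3 library (up to 0.0879), and the Aspa call for N2.1 E and N2.3 C (0.051 and 0.3). The ORR1A0 element at chr6:112615587 went from 276 ± 47.7 to 145 ± 23.8 (-0.92, adjusted p = 0.0479). No ORR1 subfamily was called by limma (background 0.498%), and 1 was called lower by edgeR and by DESeq2.

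From N2.3 to Balb/c-1 the internal part ORR1B1-int was the only ORR1 subfamily called (background 3.19%). Its sum was 22217 ± 3961 in N2.3 and 27359 ± 579 in Balb/c-1 (log2 fold change 0.32, SE 0.07, adjusted p = 0.0062), a call that was lost without N2.3 C (adjusted p = 0.143) and that turned to -0.51 outside exons. The Gpx4 piece, which alone holds 23.0% of its signal, was 4904, 5780 and 2794 in N2.3 and 7174, 7503, 7717 and 6520 in Balb/c-1. The groups did not overlap (0.75, SE 0.17, adjusted p = 0.0134). Besides Lgr6, the named falls were an ORR1A0 outside genes (chr2:157485111-157485451, 28.6 ± 21.4 to 0.702 ± 0.863, -3.82, adjusted p = 0.0121), an ORR1A3 in a noncoding exon of the laminin receptor gene Itga6 (-2.80, adjusted p = 0.0284) and an ORR1D1 outside genes on chromosome 1 (-2.33, adjusted p = 0.0204). The named rises were an ORR1B2-int in an intron on chromosome 18 (position 60308447, 3.33, adjusted p = 0.047), an ORR1F in 5430421F17Rik (2.98, adjusted p = 0.0243), an ORR1B2 in Gm47708 (2.46, adjusted p = 0.0331) and an ORR1B1 in an intron of Agtpbp1, a tubulin deglutamylase (2.17, adjusted p = 0.0461). Without single libraries, at least 1 of N2.3 among them in each case, these rises and falls other than Lgr6 lost their calls, with adjusted p up to 0.0808 for the ORR1A0 copy, 0.1 for Itga6, 0.0794 for the ORR1D1 copy, 0.23 for the chromosome 18 copy, 0.141 for 5430421F17Rik, 0.195 for Gm47708 and 0.174 for Agtpbp1. The Agtpbp1 copy had fallen in the step before (-2.35, adjusted p = 0.0267). The ORR1B1-int run on chromosome 9 also fell, by 1.71 for its first copy (adjusted p = 0.043), although N2.3 C at 91.6 lay within the Balb/c-1 range of 68.2 to 102.

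The second libraries made from the Balb/c-2 tumours gave 5 called ORR1 copies, all older types in exons and all lower in the repeat (0.344%, background 0.232%), and no called subfamily (background 2.99%). Of all copies 11 were called higher and 66 lower, and of those in exons 10 and 60. Older types make up 73.5% of tested ORR1 copies, so these traits are near the background. Called ORR1 copies numbered 1 with edgeR, 1 under TMM factors and 5 with DESeq2, all lower. Of all copies 14, 21 and 60 were lower and 1, 4 and 13 higher. The clearest was an ORR1B1-int piece in the 3′ UTR of Plin3, a lipid droplet coat protein (chr17:56279122-56279245). It read 145, 94.2 and 99.6 in Balb/c-2 and 39.9, 15.5 and 19.7 in Balb/c-2 rep2, with no overlap (log2 fold change -2.22, SE 0.35, adjusted p = 9.4e-04), and was called under all 14 alternatives. The 6 other tested copies in Plin3 exons had a median near 0 and none was called. The same piece had risen from 29.2 ± 6.26 in F2 to 100.9 ± 7.76 in N2.1 (1.78, SE 0.27, adjusted p = 1.88e-05). An ORR1B1-int piece of 19 bases in the 3′ UTR of Uhrf1, a factor that maintains DNA methylation, behaved alike: 38.6 ± 12.9 in F2, 139 ± 27.4 in N2.1, then 66.8 ± 9.25 for Balb/c-2 and, in the repeat libraries of these tumours, 19.8 ± 12.2, and 62.3 ± 1.44 in CBA. Its changes were 1.87 (adjusted p = 1.09e-04), -1.87 (adjusted p = 0.0346) and 1.78 (adjusted p = 0.00821). The other 3 were ORR1B1-int pieces in Rrn3, a factor of RNA polymerase I (-1.78, adjusted p = 0.0272), and in the noncoding gene AC125110.1 (-2.57, adjusted p = 0.0368), and an ORR1D2 in Wls, which exports Wnt proteins (-1.48, adjusted p = 0.0411). The calls in Uhrf1, Rrn3 and AC125110.1 were lost without single libraries of either group (adjusted p up to 0.29, 0.17 and 0.314). The labels name sequencing batches of 2021 and 2022 without assigning libraries to them. Of all library names, only those of Balb/c-2 rep2 and CBA carry added codes. CBA also read low at the Plin3 piece, with 9.42, 26.1 and 11.7. At the Rrn3 piece CBA read 8.37, 9.78 and 10.6, beside 7.98 to 12.1 in rep2 and 30.3 to 42.4 in Balb/c-2. The AC125110.1 piece read 12.6, 17.4 and 7.03 in CBA, and the Uhrf1 piece was not low there. A batch and these differences cannot be told apart.

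CBA tumours against Balb/c-2 rep2 showed large falls at both ORR1A and older copies. An ORR1A2 LTR outside genes (chr1:173467096-173467424) read 51.9, 15.5 and 22.7 in Balb/c-2 rep2 and 0, 2.17 and 0 in CBA. The groups did not overlap (log2 fold change -4.22, SE 0.88, adjusted p = 0.00347, and 0.085 with the intron share as a covariate). An ORR1F LTR in the 3′ UTR of Usp18, the protease that removes the interferon-induced modifier ISG15 (chr6:121270644-121270951), read 2455, 1161 and 2244 against 43.9, 392.3 and 59.8 (-4.18, SE 1.18, adjusted p = 0.0272, lost in 7 of 13 alternatives, among them those without rep2 A, rep2 C, CBA A or CBA C, with adjusted p of 0.0877 to 0.127). Along the series it had means of 37.0 in YUMM1.7 cells, 242 in F2, 553 in N2.1, 399.9 in N2.3 and 1488 in Balb/c-1, and Balb/c-2 reached 2548, with overlapping libraries between most neighbours. ORR1B2 copies at positions 60301502 (in F830016B08Rik) and 60308447 of chromosome 18 fell by 4.18 and 3.98 on the log2 scale (adjusted p = 0.0262 and 0.0137), the first lost without any of the 6 libraries (adjusted p up to 0.0961) and the second without rep2 A, CBA A or CBA C (up to 0.0839).

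The named rises in CBA were of older types. They were an ORR1D1 in an intron of Spindoc (chr19:7380229-7380548), with 0 in all 3 Balb/c-2 rep2 libraries and 11.5, 9.78 and 7.03 in CBA (at least 2.39-fold higher, adjusted p = 0.00157, and 0.0701 with the intron share as a covariate), and an ORR1C2 in an intron of the phosphofructokinase gene Pfkm (at least 2.42-fold higher, adjusted p = 0.0146). An ORR1D2 outside genes on chromosome 18 (3.11, adjusted p = 0.00156) and an ORR1B1-int piece in the 5′ UTR of Msmo1, an enzyme of sterol synthesis (3.07, adjusted p = 0.0141), completed the 4. Of the 9 other tested copies in Msmo1 exons 3 were called, all higher. The Msmo1 call was lost without rep2 A, rep2 C or CBA A (adjusted p up to 0.104) and the Pfkm call without rep2 C or CBA B (up to 0.0663). The ORR1A0 element at chr6:112615587 rose from 172 ± 16.0 to 338 ± 11.3 (0.97, adjusted p = 0.0293). By subfamily 5 of 28 were called (background 14.0%, with 6.87% higher and 7.17% lower). Under TMM factors 2 were higher and 4 lower (of all 1004 subfamilies 35 and 111). ORR1A0 (203 ± 14.0 to 299 ± 49.1, adjusted p = 0.0215), ORR1A1 (590.0 ± 84.6 to 799 ± 57.2, adjusted p = 0.0158) and ORR1C2-int (248 ± 33.5 to 393 ± 16.1, adjusted p = 0.0097) were higher. ORR1D2-int (2202 ± 359 to 1463 ± 127, adjusted p = 0.0012) and ORR1A3-int (6306 ± 141 to 5396 ± 276, adjusted p = 0.0382) were lower, but outside exons both were higher, by 0.16 and 0.24. All but ORR1D2-int lost the call without rep2 C (adjusted p = 0.0676 for ORR1A0, 0.0814 for ORR1A1, 0.0601 for ORR1C2-int and 0.1 for ORR1A3-int).

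The remaining steps changed no ORR1 copy by limma. From YUMM1.7 cells to F0 none was called (background 0.0% of copies and 0.0% of subfamilies), and neither edgeR nor DESeq2 called any. At an unadjusted limma p under 0.05 were 115 of 1455, beside 2854 of all 33215 copies. From F0 to F2 none was called (background 0.0391% and 0.199%), with 145 at an unadjusted p under 0.05 (all copies 3121), 0 by edgeR and 5 by DESeq2. From Balb/c-1 to Balb/c-2 none was called (background 0.0% and 0.0%), with 169 at an unadjusted p under 0.05 (all copies 3520), 0 by edgeR and 1 by DESeq2. With no filter on low signal limma called 72 ORR1 copies in this last step, beside 1474 of 831734 repeat copies (0.177%). Intronic ORR1 copies still shifted as a body, with a median log2 fold change of 0.41 from YUMM1.7 cells to F0 (all repeats 0.39) and -0.36 from F0 to F2 (all repeats -0.35), beside mean intron shares of 18.2%, 23.6% and 18.9% in YUMM1.7 cells, F0 and F2.

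**Figure D5:**
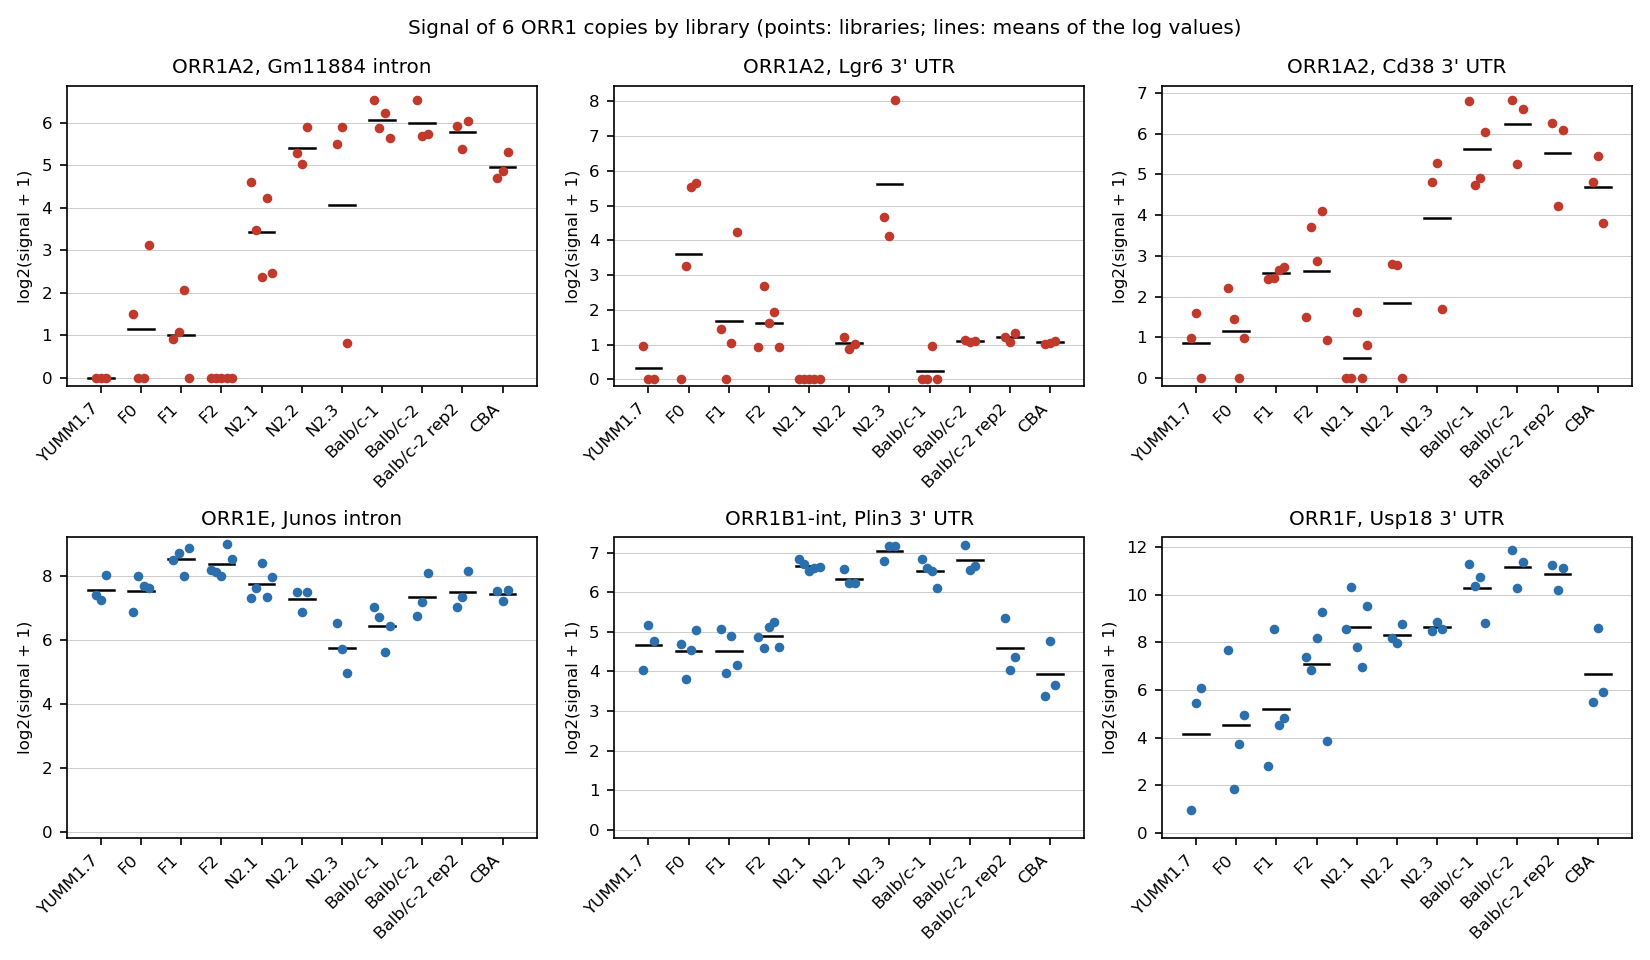
log2(signal + 1) of 6 ORR1 copies (vertical axes) in each group, with 1 point per library and lines at the means of the log values, ORR1A in red and older types in blue. The Gm11884 copy rises in N2.1 and stays, the Lgr6 copy is high in N2.3 and in 3 F0 libraries, the Junos copy is lowest in N2.3, the Plin3 piece drops in Balb/c-2 rep2, and the Usp18 copy is lower in CBA than in the Balb/c groups.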

How the data were processed

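Poly(A) RNA of 40 libraries in 11 groups was sequenced. The deposited table holds a signal per repeat copy, which the authors made from read counts divided by 1 factor per library: every value is a whole multiple of the value of 1 read (within 0.1 read), which lies between 0.659 and 1.51. The build mm10 and the tools featureCounts 1.5.0-p3, StringTie 1.3.3b and HISAT2 2.0.5 come from the submitters' processing notes, with no roles. Not given in the sources used here are the repeat annotation, the strand setting, the treatment of reads matching several copies and the batch of each library.

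Copies were placed with GENCODE release M21 and RefSeq promoter windows (GRCm38.p6). limma 3.58.1 (R 4.3.3) was fitted to log2(signal + 1) with 1 mean per group over all 40 libraries, on 33215 copies with a mean signal of at least 5 and on 1004 subfamily sums. Tests were two-sided, with Benjamini-Hochberg adjustment over all copies or subfamilies and a threshold of 0.05, and fold changes on this scale understate changes of low copies. The count tests of edgeR 4.0.16 and DESeq2 1.42.0, run on the recovered reads, TMM factors, other filters and pseudocounts, the intron share as a covariate and single left-out libraries were alternatives. Ratios were compared by exact permutation, adjusted over 8 comparisons. The fits were tested on simulated data.

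Named are all subfamilies, the 6 highest copies of each class, the 4 highest outside exons, and per comparison the 4 highest and 4 lowest fold changes among called copies whose groups do not overlap. Copies of Aim2, Naip5, Naip6, Wls, Gm29630 and Gm51987 were added after their values were seen. Members and lists were chosen with earlier results of these data known. Sequences had been planned for copies outside exons, but no genome was used here, so promoter windows and 1 transcript piece are printed. Replicate letters pair only the Balb/c-2 libraries with their repeats, which the labels describe as the same tumours, where same-tumour deviations correlated at 0.155 to 0.255 and others at -0.195 to -0.0563.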

Additional observations from a re-analysis of the deposited data

Results flagged for a closer look

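Of 47 groups of 4 to 10 libraries checked for a library far from the rest, 6 held one, where chance flags about 1 in 20. At the Naip2 ORR1E copy N2.1 E read 76.0 and the other N2.1 libraries 36.4 to 46.0. At the Gm47708 ORR1B2 copy Balb/c-1 D read 18.7 and the others 7.95 to 9.21. The other 4 were single low values among libraries at 0: N2.1 A at 5.04 for the 30-base ORR1C2 piece of Gxylt2, N2.1 B at 1.02 for the Fbn2 piece, F2 D at 1.91 for the ORR1B2 copy at position 18798308 of chromosome 18, and Balb/c-1 C at 0.961 for the Lgr6 ORR1A2 copy. Without the library named, the fold changes of the comparisons these copies were named for kept their direction, though the Gm47708 and Fbn2 calls were lost (adjusted p = 0.0826 and 0.0529).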

How the results depend on the processing

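Of 36 named copy results 9 kept their call under every alternative run, 27 lost it under some and none reversed, and all 20 subfamily calls were lost under some, 8 of them reversing. The causes were not tested, and depth limits copies of a few reads.

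Called copies in the order of the comparisons changed as follows. With no filter they were 71 (N2.1 against F2), 117 (N2.3 against N2.1), 140 (Balb/c-1), 72 (Balb/c-2 against Balb/c-1), 11 (rep2) and 25 (CBA). These counts are among 41981 ORR1 copies with any read. Of all 831734 copies, 0.182%, 0.323%, 0.344%, 0.177%, 0.0215% and 0.0785% were called in this order. With a mean signal of at least 20 they were 74 (N2.1), 15 (N2.3) and 52 (CBA), and the shares over all copies for this filter are not given here. With the intron share as covariate they were 48 (N2.1), 11 (Balb/c-1), 2 (Balb/c-2) and 7 (CBA), beside 3.45%, 1.22%, 0.0662% and 0.759% of all copies. DESeq2 gave 5 (F2 against F0), 53 (Balb/c-1) and 1 (Balb/c-2), beside 0.226%, 3.39% and 0.0995% of all copies. From edgeR came 1 (rep2) and 49 (CBA), beside 0.0452% and 3.41%. TMM gave 1 (Balb/c-2) and 1 (rep2), beside 0.0391% and 0.0753%. A pseudocount of 5 gave 2 (Balb/c-2), with no share over all copies given here. Called subfamilies were 3 (N2.1), 5 (Balb/c-1) and 1 (rep2) under TMM, beside 212, 91 and 18 of all 1004. With the intron share they were 2 (N2.1), 1 (N2.3), 2 (Balb/c-1), 1 (rep2) and 3 (CBA). Outside exons they were 25 (N2.1), 0 (Balb/c-1) and 2 (CBA). With edgeR they were 5 (N2.1) and 1 (N2.3), and with DESeq2 5 (N2.1), 1 (N2.3) and 2 (Balb/c-1). Except for TMM, the shares over all subfamilies for these settings are not given here, so these counts are no result about ORR1.

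The log2 ratio of ORR1A to older types reversed outside exons to -0.012 (F0 against YUMM1.7), 0.022 (F2 against F0), -0.129 (N2.1) and -0.068 (CBA). As a median over tested copies it reversed to -0.025 (F0), -0.00695 (Balb/c-2) and -0.123 (CBA), and in LTR copies alone to -0.032 (N2.1) and -0.066 (Balb/c-2). Subfamily fold changes reversed outside exons for ORR1A3-int (0.24) and ORR1D2-int (0.16) in CBA, ORR1B1-int in Balb/c-1 (-0.51) and ORR1D1-int in N2.1 (0.43). For N2.1 against F2, ORR1C1 reversed under TMM (-0.027), and with edgeR and DESeq2 ORR1A4 (-0.023 and -0.025), ORR1C1 (-0.0793 and -0.0793), ORR1C2 (-0.047 and -0.046) and ORR1F (-0.0365 and -0.0358) reversed.

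Leaving out single libraries gave 0 to 1, 0 to 2, 79 to 148, 8 to 31, 9 to 30, 0 to 4, 1 to 6 and 23 to 92 called copies in the 8 comparisons, 7 to 15 (N2.1), 0 to 2 (Balb/c-1), 0 to 1 (Balb/c-2) and 2 to 5 (CBA) called subfamilies and 0 to 0 in the others. The shares over all copies and subfamilies for these fits are not given here. The ratio differences ranged over 0.042 to 0.084, -0.065 to -0.022, -0.000178 to 0.036, 0.047 to 0.137, -0.179 to -0.089, 0.026 to 0.057, -0.012 to 0.024 and 0.084 to 0.121. For rep2 the 5 calls fell to 1 without Balb/c-2 A or rep2 C, 2 without Balb/c-2 C or rep2 A and 3 without rep2 B.

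With the tumour as a replicate block, Balb/c-2 rep2 against Balb/c-2 gave 5 called copies, 0 called subfamilies and a ratio difference of 0.008 (exact p = 0.25, the smallest possible), so the block changed no call.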
